A study of Drosophila melanogaster with 4 samples.

Results

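Oxidative phosphorylation genes of Drosophila melanogaster were followed in whole flies fed 1 of 2 sugars. Members were all genes whose FlyBase symbol starts with ND-, UQCR-, COX and a digit, ATPsyn or mt: (transfer RNA genes left out), together with SdhA, SdhB, SdhC and SdhD. This gave 100 genes, of which 99 had a row in the authors' table of 17628 genes and 94 had enough reads to be tested. They comprised 63 nuclear subunit genes (61 tested), 21 nuclear paralogs whose symbol ends in L, or in L and a digit (20 tested), 13 mitochondrially encoded messenger RNAs (11 tested) and 2 mitochondrial ribosomal RNAs (both tested). Genes of the same complexes with other symbols, such as RFeSP or blw, fall outside this rule and are given separately.

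All flies were of the Oregon strain and 5 days old, and neither a mutation nor a transgene is given for either diet. One group had food containing glucose and the other food containing galactose, with 2 libraries each. The sex of the flies is not stated in the labels. Nor is it stated that same-diet libraries were made from different cultures, and the p-values therefore reflect library-to-library spread alone, part or all of which may be technical. RNA was taken from whole animals and captured by its poly-A tail, so fewer cells of a type and less RNA per cell cannot be told apart in any result here.

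Oxidative phosphorylation takes place in the inner mitochondrial membrane. Complexes I and II pass electrons from NADH and succinate to ubiquinone, complex III passes them on to cytochrome c, complex IV reduces oxygen, and complex V uses the resulting proton gradient to make ATP. Complexes I, III, IV and V are built from subunits of both the nuclear and the mitochondrial genome, whereas complex II is wholly nuclear encoded. Insect flight muscle is among the tissues richest in these complexes.

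Libraries held between 21147212 and 25497099 counted reads. Values below are counts scaled to library size (CPM, per 1000000 reads) after TMM scaling, a correction for differences in library composition, and log2 fold changes are galactose over glucose. With edgeR's quasi-likelihood test and Benjamini-Hochberg adjustment over 12529 genes, 0 genes (0%) were called at an adjusted p under 0.05. DESeq2 gave an adjusted p to 12545 genes and called 89 (0.709%), among them 0 oxidative phosphorylation genes. At an unadjusted p under 0.05, edgeR had 647 genes lower on galactose (5.16%) and 386 higher. The galactose pair was entirely below the glucose pair for 23.4% of genes and entirely above it for 18.8%.

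Nuclear subunits had lower mean levels on galactose almost throughout, without any of them passing the test. Of the 61 tested, 60 had a negative log2 fold change, against 53.1% of all tested genes. The median was -0.48 (quartiles -0.54 and -0.38), a level 28.3% lower on galactose, against -0.04 over all genes. In 52 of the 61 both galactose libraries were under both glucose libraries, against 23.4% of all tested genes, and in 0 were both above. The smallest adjusted p among them was 0.587 with edgeR and 0.634 with DESeq2, and no single gene was called. Unadjusted p was under 0.05 for 7 subunits, ND-18, ND-39, ND-51, SdhB, SdhC, UQCR-C2 and UQCR-Q, each of them lower on galactose, against 5.16% of all tested genes. The authors' deposited table, its sign turned to galactose over glucose, gave an adjusted p for 60 of the 61, the smallest 0.598, and none for ND-B8.

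The 4 libraries did not fall into 2 equal pairs. The median deviation of the nuclear subunits from each gene's mean, on the log2(CPM + 0.5) scale, was 0.23 in glucose replicate 1, 0.26 in glucose replicate 2, -0.08 in galactose replicate 1 and -0.40 in galactose replicate 2. Galactose replicate 2 was the lowest library for 59 of the 61 genes. Between the glucose libraries the median log2 difference was -0.02, and between the galactose libraries, replicate 1 over replicate 2, it was 0.30. Without galactose replicate 2 the median fold change was -0.31 on the log2 scale and without galactose replicate 1 it was -0.72. Together the 63 genes took 2.19% and 2.11% of counted reads on glucose and 1.88% and 1.55% on galactose.

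**Figure D1:**
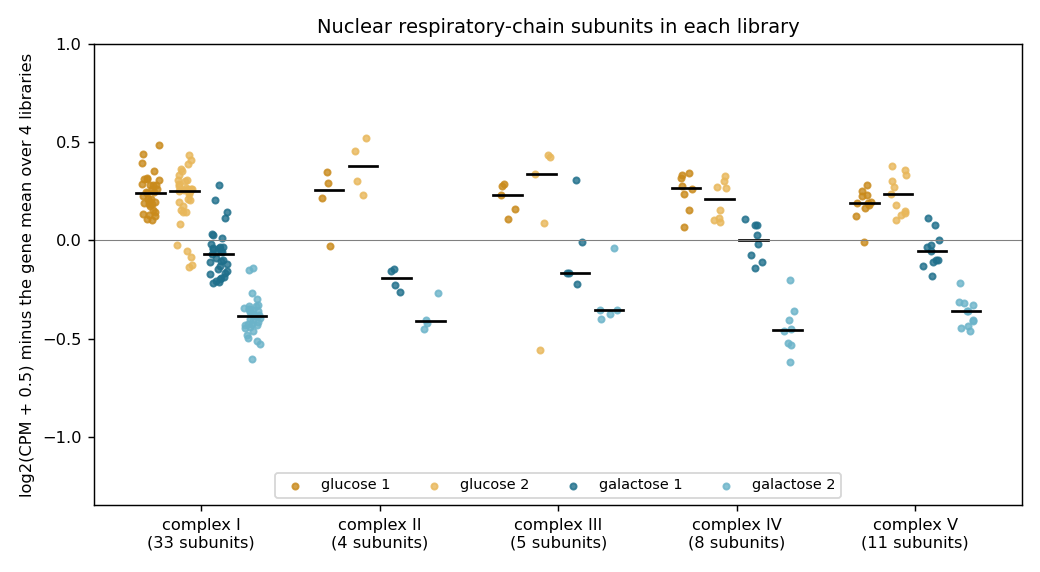
Level of each tested nuclear subunit in each library, by complex, as log2(CPM + 0.5) minus the gene's mean over the 4 libraries; points are genes and black lines are medians. Galactose replicate 2 has the lowest median in each complex, and the complex IV median of galactose replicate 1 is 0.003.

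Complex I, the NADH dehydrogenase, had 34 nuclear subunits in the set, 33 of them tested. All 33 had a negative log2 fold change, with a median of -0.49. Of these, 28 were lower in both galactose libraries, against 23.4% of all tested genes. ND-51, the NADH-binding flavoprotein subunit (FBgn0031771, 2L, 6060842 to 6062757), was at 399.2 and 475.4 CPM on glucose and 302.1 and 265.9 CPM on galactose. Its diets did not overlap, and its log2 fold change was -0.62 ± 0.24 (SE; edgeR adjusted p = 0.603). ND-18 (FBgn0031021), a subunit of the peripheral arm, was at 148.0 and 159.0 CPM against 107.8 and 91.4 CPM, also without overlap, with a log2 fold change of -0.62. ND-39 (FBgn0037001) was at 507.1 and 581.6 CPM on glucose and 384.7 and 345.1 CPM on galactose, a log2 fold change of -0.58. These 3 genes therefore had the same order, with both glucose libraries on top and galactose replicate 2 at the bottom.

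Other complex I subunits separated the diets less. ND-ACP, the mitochondrial acyl carrier protein, was at 188.9 and 168.4 CPM on glucose and 174.9 and 154.2 CPM on galactose, a log2 fold change of -0.12. ND-MLRQ was at 352.3 and 250.7 CPM on glucose and 335.6 and 194.8 CPM on galactose, a log2 fold change of -0.18. The libraries of the 2 diets interleaved for both genes, as they did for ND-13A, ND-15 and ND-AGGG. Per kilobase of annotated exon, the 2 subunits with the highest level were ND-MLRQ at 526.7 CPM and ND-30 at 301.0 CPM, and the median of complex I was 157.8 CPM. ND-B8 and ND-MWFE were barely covered, at 0.371 and 1.05 mean CPM, and ND-MNLL had 0 counts in all 4 libraries. All exonic bases of ND-MNLL are shared with CG45089 on the same strand in the BDGP6.54 annotation, so its count is uncertain. ND-B8 shares 15.4% and ND-MWFE 34.95% of exonic bases with other genes, and their counts are uncertain too. Subunits with like sharing had many reads, COX7C (15.7%) at 266.8 and ATPsyndelta (35.6%) at 353.9 mean CPM. Why ND-B8 and ND-MWFE were barely covered was not tested.

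Complex II, the succinate dehydrogenase that also works in the citric acid cycle, had a median of -0.58. All 4 of its subunits were lower in both galactose libraries, against 23.4% of all tested genes. SdhA, the flavoprotein (FBgn0261439, 2R, 19391863 to 19395971), was at 498.7 and 728.9 CPM on glucose and 434.8 and 422.5 CPM on galactose. Its spread was wide on glucose, with a log2 fold change of -0.52 ± 0.27 (SE; edgeR adjusted p = 0.626), and of -0.21 without glucose replicate 2 and -0.77 without glucose replicate 1. SdhB, the iron-sulphur subunit (FBgn0014028, 2R, 6807626 to 6809172), was at 307.1 and 361.9 CPM on glucose and 219.7 and 199.2 CPM on galactose. Its log2 fold change of -0.68 ± 0.24 (SE) was the lowest among nuclear subunits of at least 50 mean CPM (edgeR adjusted p = 0.587). The membrane anchors were close to each other in their differences. SdhC (FBgn0037873, 3R, 11208887 to 11209849) was at 220.6 and 222.0 CPM on glucose and 162.9 and 131.7 CPM on galactose (log2 fold change -0.59), and SdhD (FBgn0039112, 3R, 23759483 to 23760600) was at 165.9 and 153.1 CPM against 116.9 and 97.5 CPM (log2 fold change -0.57). Per kilobase, the 4 subunits were within 1.496-fold of each other, from 149.2 CPM for SdhD to 223.1 CPM for SdhB.

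Complex III, the cytochrome bc1 complex, had 6 nuclear subunits under the rule and 5 tested, with a median of -0.55. The core protein gene UQCR-C1 (FBgn0038271, 3R, 14890231 to 14892387) was at 979.5 and 1231 CPM on glucose and 809.5 and 700.8 CPM on galactose (log2 fold change -0.55 ± 0.25 SE). The other core protein gene, UQCR-C2, was at 759.0 and 911.7 CPM against 581.5 and 530.5 CPM, and UQCR-Q at 414.9 and 447.2 CPM against 315.1 and 267.8 CPM. The diets did not overlap for these 3 genes, with log2 fold changes of -0.59 for UQCR-C2 and -0.56 for UQCR-Q. UQCR-6.4 was at 168.6 and 148.1 CPM on glucose and 138.3 and 108.8 CPM on galactose (log2 fold change -0.36), and 40.5% of its exonic bases are shared with POSH on the other strand. UQCR-11 was the single tested nuclear subunit with a positive value. It was at 97.9 and 54.3 CPM on glucose and 99.5 and 78.1 CPM on galactose, with galactose replicate 1 just above and galactose replicate 2 inside the glucose range, and its log2 fold change of 0.22 ± 0.34 (SE; edgeR adjusted p = 0.845) turned to -0.14 without glucose replicate 2 and -0.03 without galactose replicate 1. UQCR-14 had 0 counts, and all of its exonic bases are shared with CG32576 on the other strand.

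Complex IV, the cytochrome c oxidase, had 8 nuclear subunits, all tested and all with a negative log2 fold change, with a median of -0.45. COX4 was at 781.7 and 802.0 CPM on glucose and 602.2 and 517.6 CPM on galactose, and COX5A (FBgn0019624) at 630.6 and 648.4 CPM against 487.9 and 385.4 CPM. Neither gene overlapped between diets, and the log2 fold changes were -0.50 and -0.55. COX8, at 312.8 and 310.4 CPM on glucose and 272.9 and 167.6 CPM on galactose, was also at -0.50, and the low value was that of galactose replicate 2, without which it was at -0.18. COX7A was at 351.9 and 374.3 CPM against 331.3 and 291.8 CPM, the value nearest 0 in the complex at -0.22. COX5B was the only subunit of the 8 whose diets overlapped, at 329.9 and 282.4 CPM on glucose and 285.4 and 184.2 CPM on galactose (log2 fold change -0.38, and -0.095 without galactose replicate 2). The complex was the one most dependent on galactose replicate 2: its median log2 fold change was -0.19 without that library and -0.77 without galactose replicate 1. Levels per kilobase lay between 312.8 CPM for COX7C and 704.6 CPM for COX7B.

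Complex V, the ATP synthase, had 11 nuclear subunits under the rule, all with a negative log2 fold change and 9 lower in both galactose libraries, with a median of -0.45. The lowest fold changes were those of ATPsynB and ATPsynD, both stalk subunits. ATPsynB was at 680.0 and 770.6 CPM on glucose and 529.7 and 466.9 CPM on galactose, and ATPsynD at 477.0 and 552.6 CPM against 389.2 and 319.9 CPM. The diets did not overlap in either gene, and both log2 fold changes were -0.54. The 2 most abundant subunits of the complex per kilobase behaved differently in rank. ATPsynC, the ring subunit of the membrane rotor (FBgn0039830, 3R, 31216145 to 31219630), was at 1914 and 2137 CPM on glucose and 2038 and 1656 CPM on galactose, and ATPsynbeta, the catalytic subunit (FBgn0010217, 4, 1031484 to 1034917), was at 2219 and 2033 CPM against 2052 and 1393 CPM. In both, galactose replicate 1 lay between the glucose libraries, and the log2 fold changes were -0.13 ± 0.24 and -0.30 ± 0.27 (SE). Without galactose replicate 2 they were 0.014 and -0.045. Their levels per kilobase were 1037 and 806.3 CPM.

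Over the complexes, the medians from -0.45 to -0.58 lay within a narrow band. The SD of a complex's median between libraries of a diet was 0.13 on the log2 scale for complex II, 0.23 for complex IV and 0.16 for complex V, and differences between complexes were not tested. With a trend over gene length subtracted, the band ran from -0.21 for complex IV to -0.45 for complex II. Within 0.2 of the common median lay 54 of the 61 log2 fold changes. In level per kilobase, all 8 complex IV and all 4 complex II genes, 10 of 11 complex V, 4 of 5 complex III and 24 of 33 complex I genes were in the top 5% of tested genes, where the median gene was at 11.5 CPM per kilobase.

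**Figure D2:**
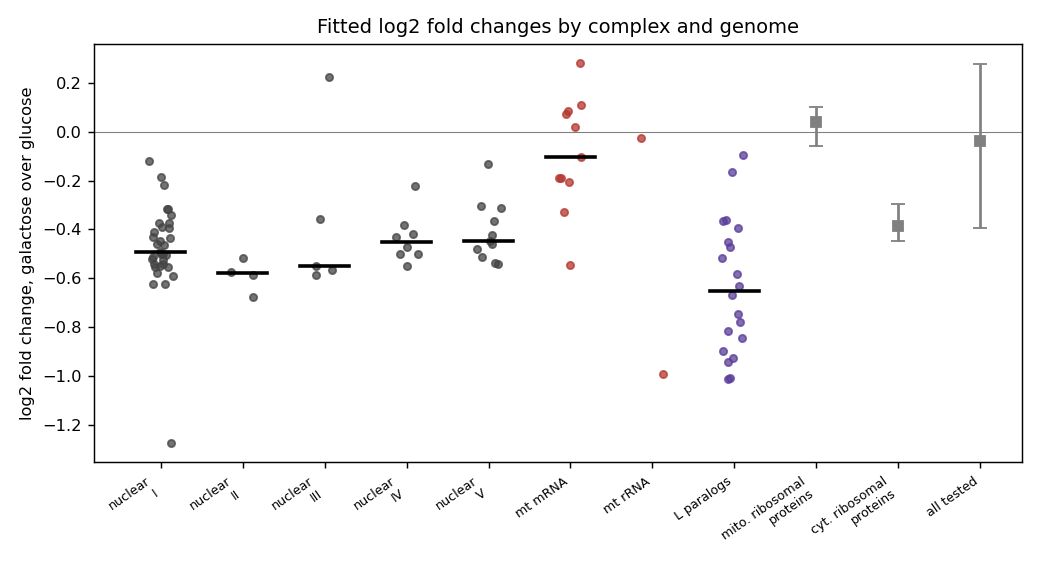
Fitted log2 fold change (galactose over glucose) of every tested gene, by complex for nuclear subunits and by kind for the others; black lines are medians, and grey squares with bars give medians and quartiles of the comparison lists. Nuclear complexes have medians from -0.45 to -0.58, mitochondrial mRNAs -0.10 and mitochondrial ribosomal proteins 0.04.

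Nuclear subunit genes are short, with a median of 871 annotated exonic bases, and log2 fold changes over all genes moved with length. Nuclear genes outside the set had a median of -0.27 with 500 to under 1000 exonic bases and of 0.24 with 4000 or more. The 37 subunits in the same length range had a median of -0.47, and the 17 subunits of 1000 to under 2000 bases one of -0.50 against -0.11 for 4009 other genes. After a smooth trend over length was subtracted the median of the nuclear subunits was -0.27, and those of complexes I to V were -0.27, -0.45, -0.37, -0.21 and -0.28. Mitochondrial ribosomal proteins, of like length (median 783 exonic bases) but at lower levels, had a median of 0.04 over 70 tested genes, of which 10 were lower and 10 higher in both galactose libraries. Cytosolic ribosomal proteins, with 901 exonic bases, had a median of -0.39, and 67 of 86 were lower in both galactose libraries. Over all tested genes, 23.4% were lower and 18.8% higher in both. What part gene length has in the values of the subunits was not tested.

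**Figure D3:**
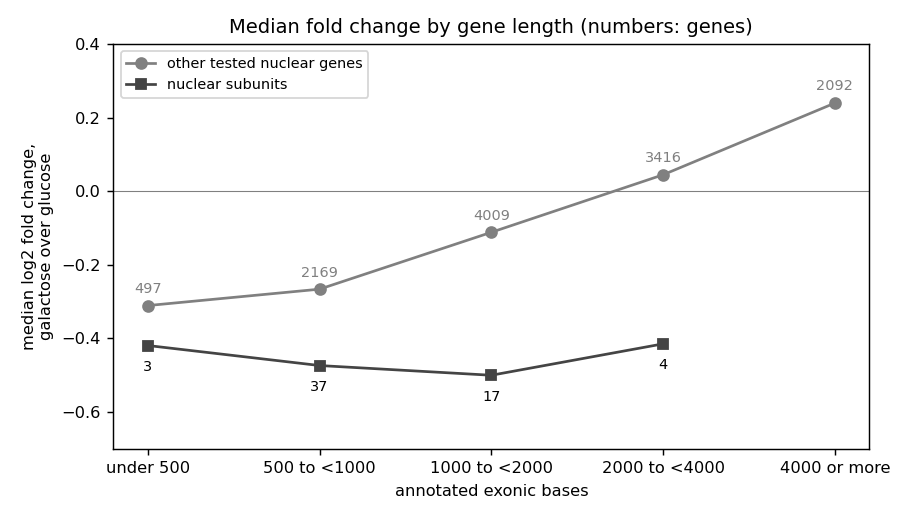
Median log2 fold change (galactose over glucose) by annotated exonic bases for nuclear subunits (black squares) and other tested nuclear genes (grey circles), with the number of genes at each point. Other genes go from -0.31 under 500 bases to 0.24 at 4000 or more, and subunits lie between -0.41 and -0.50 in every bin that holds any.

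Some subunit genes share exonic bases with other genes, and no source used here says how reads in them were counted. The median log2 fold change was -0.47 over the 30 subunits that share none and -0.51 over the 31 tested ones that share some. The subunit genes lay on all major chromosome arms, from 11 on 2R to 13 each on 3L and 3R, with 2 on chromosome 4.

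The mitochondrial messenger RNAs did not share the nearly uniform direction of the nuclear subunits. Of the 11 tested, 6 had a negative and 5 a positive log2 fold change, with a median of -0.10. The median was 0.05 over the 6 of complex I and -0.19 over the 5 of complexes III to V. Without galactose replicate 2 the median of the 11 was only 0.08 above that of the nuclear subunits. The galactose libraries were both below the glucose libraries for 3 of the 11, or 27.3%, near the 23.4% of all tested genes. Leaving out glucose replicate 1 put the median at 0.06 and leaving out glucose replicate 2 at -0.21. It was -0.05 when galactose replicate 1 was omitted and -0.24 when galactose replicate 2 was. The cytochrome oxidase messenger RNAs dominated the mitochondrial messenger RNA counts. mt:CoI (FBgn0013674, positions 1474 to 3009 of the mitochondrial genome), which encodes the catalytic subunit, was at 7052 and 6922 CPM on glucose and 6606 and 5504 CPM on galactose, and mt:CoIII at 2920 and 2675 CPM against 2523 and 2382 CPM. In both, each galactose library was below each glucose library, by a log2 fold change of -0.21 ± 0.22 (SE; edgeR adjusted p = 0.783) for mt:CoI and -0.19 for mt:CoIII. Without galactose replicate 1 these were -0.41 and -0.30, and without galactose replicate 2 they were -0.07 and -0.14. mt:CoII was at 2121 and 1257 CPM on glucose and 1845 and 1301 CPM on galactose, and mt:ATPase6, of complex V, at 1197 and 731.9 CPM against 1130 and 948.8 CPM. Both galactose libraries lay inside the glucose range for mt:CoII and mt:ATPase6, the replicates numbered 1 were the higher ones in each diet, and the log2 fold changes were -0.10 and 0.11.

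mt:Cyt-b, the only mitochondrially encoded subunit of complex III (FBgn0013678, positions 10499 to 11635), had the lowest value of these messenger RNAs. It was at 76.7 and 70.4 CPM on glucose and 48.3 and 52.5 CPM on galactose, close within each diet, with a log2 fold change of -0.55 ± 0.25 (SE; edgeR adjusted p = 0.615).

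The complex I messenger RNAs had far lower counts and varied widely between libraries of one diet. mt:ND2 (FBgn0013680, positions 240 to 1263) was at 42.8 and 36.7 CPM on glucose and at 18.3 and 78.3 CPM on galactose. The galactose libraries thus stood on either side of the glucose pair, and the log2 fold change of 0.28 ± 0.60 (SE; edgeR adjusted p = 0.887) became -1.11 without galactose replicate 2. mt:ND3 was at 4.25 and 5.93 CPM against 2.45 and 5.66 CPM, and mt:ND6 at 0.896 and 0.695 CPM against 0.208 and 1.48 CPM. Galactose replicate 1 was again the lowest library. mt:ND1 was at 10.6 and 9.96 CPM on glucose and 8.67 and 12.2 CPM on galactose, mt:ND4 at 16.2 and 14.03 CPM against 11.2 and 15.3 CPM, and mt:ND5 at 16.6 and 9.45 CPM against 11.5 and 16.2 CPM. In all 6 of these genes galactose replicate 1 was below galactose replicate 2, with a median log2 difference of -0.77, and the diets overlapped. Their log2 fold changes were between -0.33 for mt:ND3 and 0.28 for mt:ND2, with a median of 0.05. mt:ND4L and mt:ATPase8 had at most 1.08 CPM in any library and were not tested.

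Per kilobase the mitochondrial messenger RNAs covered a wide range, from 1.56 CPM for mt:ND6 to 4245 CPM for mt:CoI among those tested, with mt:CoIII at 3327, mt:CoII at 2381 and mt:ATPase6 at 1484 CPM. A gap separated these 4 from mt:Cyt-b at 54.5 and mt:ND2 at 43.0 CPM. Genes that overlap on the same strand also differed. The untested mt:ATPase8, which overlaps mt:ATPase6, was at 0.267 CPM per kilobase. Likewise mt:ND4L, which overlaps mt:ND4, was at 1.41 beside 10.6 CPM. These values, those of the 2 ribosomal RNAs included, are counts after poly-A capture and need not rank transcript abundance. The part of capture and read assignment in them was not tested. The 8 tested genes on the plus strand had a median log2 fold change of -0.15 and the 3 on the minus strand one of 0.02. The 2 mitochondrial ribosomal RNAs differed from each other. mt:lrRNA was at 736.2 and 613.9 CPM on glucose and 550.9 and 775.8 CPM on galactose, with the glucose values inside the galactose range, whereas mt:srRNA (FBgn0013688) was at 3.90 and 4.26 CPM against 2.16 and 1.93 CPM, without overlap, a log2 fold change of -0.99 ± 0.39 (SE; edgeR adjusted p = 0.602).

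**Figure D4:**
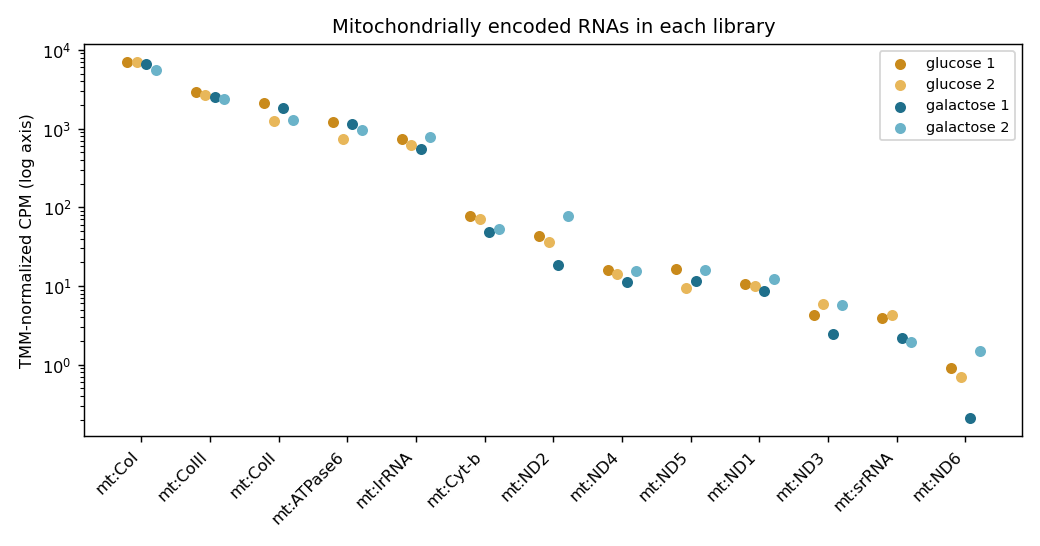
TMM-normalized CPM (log axis) of the 13 tested mitochondrially encoded RNAs in each of the 4 libraries, ordered by mean level. mt:CoI, mt:CoIII, mt:CoII and mt:ATPase6 are at 731.9 CPM or more in every library. Galactose replicate 1 is the lowest library for mt:lrRNA, mt:Cyt-b, mt:ND1, mt:ND2, mt:ND3, mt:ND4 and mt:ND6.

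The 2 genomes differed by 0.38 in their median log2 fold change, mitochondrial messenger RNAs minus nuclear subunits, beside an SD of this difference between libraries of a diet of 0.36. Galactose replicate 2 stood apart in this respect. The difference of the median deviations was -0.05 and -0.30 in the glucose libraries, -0.16 in galactose replicate 1 and 0.52 in galactose replicate 2, and without the last the difference of medians was 0.08. Omitting glucose replicate 2 gave 0.23, omitting glucose replicate 1 gave 0.56 and omitting galactose replicate 1 gave 0.67. Summed counts gave another view, weighted by the abundant genes. Mitochondrial messenger RNA counts amounted to 61.8% and 51.4% of the nuclear subunit counts on glucose and 66.0% and 69.8% on galactose. This ratio was thus above the glucose range on galactose. As a share of all counted reads, however, mitochondrial messenger RNAs did not separate the diets. They took 1.35% and 1.09% on glucose and 1.24% and 1.09% on galactose. The nuclear subunits, the denominator, took 2.19% and 2.11% on glucose and less on galactose, 1.88% and 1.55%. For complex IV, the 3 mitochondrial messenger RNAs had 3.57 and 3.25 times the counts of the 8 nuclear subunits on glucose and 3.93 and 4.31 times on galactose. For complex I the mitochondrial share was far lower, with 1.47% and 1.19% of the nuclear counts on glucose and 1.02% and 3.16% on galactose, and the galactose libraries were the lowest and the highest of the 4. With 2 libraries against 2, an exact permutation test cannot give a two-sided p under 0.333, and no test of these ratios was made.

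The L paralogs, nuclear copies named after a subunit, were at low levels, and several such copies are known for expression in the testis. Each of the 15 copies with a tested namesake had between 10.4-fold and 195-fold lower mean CPM than the gene it is named after, with a median of 28.6-fold. All 20 tested had a negative log2 fold change, with a median of -0.65. Both galactose libraries were lower for 13 of the 20 (65.0%), against 23.4% of all tested genes and 28.6% of tested nuclear genes under 1000 exonic bases. Unadjusted edgeR p was under 0.05 for 4, against 5.16% of all tested genes, and the smallest adjusted p was 0.582. Glucose replicate 1 was the highest library for 18 of the 20.

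COX7AL2 was at 51.4 and 34.2 CPM on glucose and 26.9 and 17.7 CPM on galactose, with a log2 fold change of -0.94 ± 0.34 (SE; edgeR adjusted p = 0.587), beside -0.22 for COX7A. COX4L was at 48.7 and 27.7 CPM against 28.1 and 22.9 CPM, with galactose replicate 1 above glucose replicate 2, and a log2 fold change of -0.58 beside -0.50 for COX4. Without glucose replicate 1 the value of COX4L was -0.12. Only the first of these copies separated the diets. ND-51L1 was at 13.3 and 15.8 CPM on glucose and 7.55 and 7.77 CPM on galactose, close within each diet, with a log2 fold change of -0.93 beside -0.62 for ND-51. COX7AL was at 19.5 and 7.73 CPM against 10.6 and 9.39 CPM, its galactose values inside the glucose range, and ND-49L at 16.7 and 13.8 CPM against 10.003 and 11.3 CPM, beside a log2 fold change of -0.34 for ND-49. ND-20L was at 8.18 and 8.01 CPM on glucose and 3.69 and 4.36 CPM on galactose, without overlap, and COX6AL at 15.7 and 11.2 CPM against 8.51 and 5.93 CPM. Over the 15 pairs with both genes tested, 12 had the lower fold change in the copy, and the median difference was -0.23. COX5BL had 0 counts, and all of its exonic bases are shared with Trmt6 on the other strand.

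**Figure D5:**
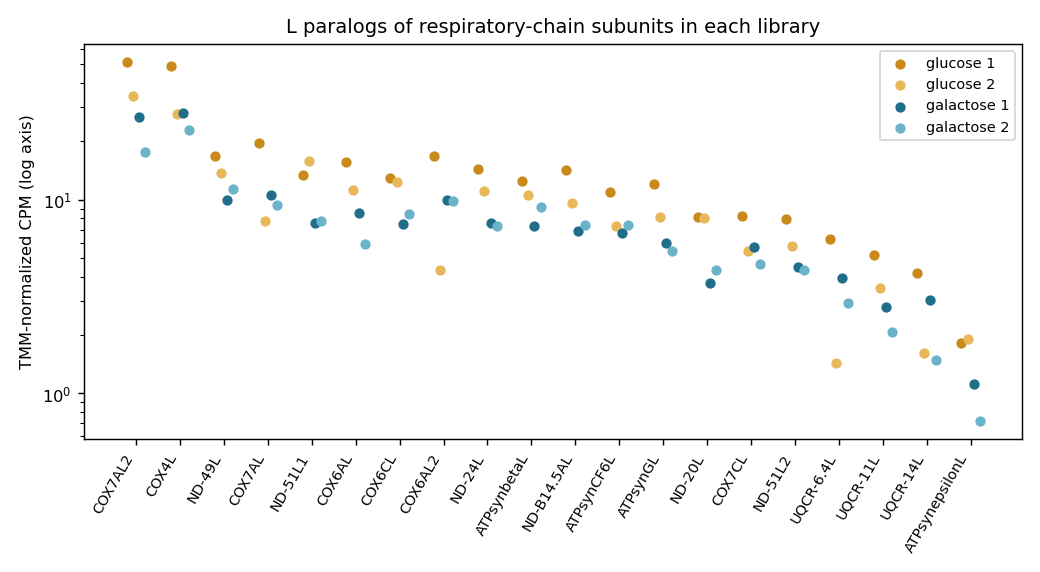
TMM-normalized CPM (log axis) of the 20 tested L paralogs in each of the 4 libraries, ordered by mean level. Glucose replicate 1 is the highest library for 18 of the 20.

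Markers of tissues also differed between libraries, and their part in these results was not tested. Of 14 tested muscle genes 13 had a negative log2 fold change, with a median of -0.62. Both galactose libraries were lower for 11 of the 14, against 23.4% of all tested genes. The summed level of the listed muscle genes was 7748 and 11183 CPM on glucose and 6810 and 5281 CPM on galactose. None in the table was at 0, but fln had at most 0.232 CPM in any library and was not tested. The median deviation of the muscle genes was 0.22, 0.37, -0.06 and -0.57 in glucose replicates 1 and 2 and galactose replicates 1 and 2, the same order of libraries as for the nuclear subunits. Of 6 photoreceptor genes, all above 0, 5 were lower in both galactose libraries, against 23.4% of all tested genes. Their median was -0.76, with summed levels of 3911 and 3690 CPM on glucose and 2665 and 1898 CPM on galactose.

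Testis markers are given here beside the L paralogs, and a link between the 2 sets was not tested. Of 14 tested, 12 had a negative log2 fold change with a median of -0.50, and 3 (21.4%) were lower in both galactose libraries, near the 23.4% of all tested genes. Their summed level was 1839 CPM in glucose replicate 1, 697.0 CPM in glucose replicate 2 and 893.9 and 792.5 CPM on galactose, so that glucose replicate 1 stood alone, and Mst84Da was at 0. The L paralogs summed to 300.9 and 201.4 CPM on glucose and 168.4 and 150.5 CPM on galactose. Male accessory gland genes, 7 tested with Acp95EF at 0, summed to 972.1 and 438.3 CPM against 517.0 and 732.4 CPM. Of 11 female germline and egg genes, 5 were higher and 3 lower in both galactose libraries, against 18.8% and 23.4% of all tested genes. Their median log2 fold change was 0.59. The 3 lower ones were the yolk protein genes Yp1, Yp2 and Yp3. These dominated the summed level of 19215 and 23478 CPM on glucose and 17688 and 17274 CPM on galactose. Of 5 neuron genes 4 had a positive value, with a median of 0.37, and 1 was higher in both galactose libraries. Between libraries of a diet, replicate 1 over replicate 2, their median log2 difference was 1.00 on glucose and 0.91 on galactose. Their median exonic length was 10715 bases, and nuclear genes outside the set with 4000 bases or more had a median of 0.24. The 2 tested fat body genes overlapped between diets.

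Genes that work with these complexes differed by group. Of the subunits and electron carriers outside the symbol rule, all 10 tested had a negative log2 fold change, with a median of -0.37. In 7 of the 10 both galactose libraries were lower, against 23.4% of all tested genes. RFeSP, the Rieske iron-sulphur protein of complex III, was at 527.0 and 614.2 CPM on glucose and 387.8 and 361.4 CPM on galactose (log2 fold change -0.61). The complex IV subunit levy was at 636.4 and 627.7 CPM against 471.2 and 392.0 CPM (-0.55 on the log2 scale). The value nearest 0 was that of sun, the epsilon subunit of complex V, at -0.19, and the libraries of the diets overlapped for 3 of the 10. The 7 tested genes of ATP, phosphate and proton exchange had a median log2 fold change of -0.37. Of these, 3 were lower and 1 was higher in both galactose libraries, against 23.4% and 18.8% of all tested genes. The adenine nucleotide carrier sesB was at 2706 and 3037 CPM on glucose and 2392 and 1962 CPM on galactose (log2 fold change -0.40). The phosphate carrier Mpcp1 was at 402.5 and 504.0 CPM against 219.0 and 171.4 CPM, without overlap, at -1.22 ± 0.27 (SE; edgeR adjusted p = 0.541; DESeq2 adjusted p = 0.0739). The uncoupling carrier Bmcp went the other way, at 51.1 and 61.5 CPM on glucose and 62.9 and 77.6 CPM on galactose (log2 fold change 0.32).

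The 10 tested assembly factors had a median log2 fold change of -0.04, and Cox17, a copper chaperone, had the lowest value at -0.35. Of the 10, 3 were lower and 4 higher in both galactose libraries, against 23.4% and 18.8% of all tested genes. The 4 tested genes of mitochondrial DNA upkeep and expression had a median of 0.11, among them TFAM, the mitochondrial DNA packaging factor, at 112.3 and 111.1 CPM on glucose and 120.1 and 124.6 CPM on galactose. Nuclear regulators went the other way from the subunits. All 5 had a positive log2 fold change, with a median of 0.58. In 4 of them both galactose libraries were higher, against 18.8% of all tested genes. srl, the fly PGC-1 homologue and a coactivator of mitochondrial genes, was at 114.0 and 109.7 CPM on glucose and 181.8 and 237.8 CPM on galactose, and its libraries did not overlap (log2 fold change 0.91 ± 0.26 SE; edgeR adjusted p = 0.582). Myc was at 43.9 and 17.8 CPM against 73.0 and 68.1 CPM, a log2 fold change of 1.19 with a wide spread on glucose. The median exonic length of these 5 genes was 4642 bases, and nuclear genes outside the set with 4000 bases or more had a median of 0.24.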

How the data were processed

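The authors deposited raw read counts per gene for 4 libraries. Reads were handled with TopHat2 2.0.12, Bowtie2 2.2.3, HTSeq 0.6.1 and DESeq2 on build BDGP6, per the submitters' processing notes, and no strand setting is stated in these sources. Their comparison table, per the file headers, holds an expression signal for each diet, a log2 fold change and p-value columns, deposited as the authors' own results.

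Counts were fitted with edgeR 4.0.16 (TMM, filterByExpr with a minimum count of 10, quasi-likelihood test, Benjamini-Hochberg over 12529 genes), with DESeq2 1.42.0 at its default settings as an alternative on all genes. The fit was run on simulated counts with the same dispersion for all genes (0.0812) and with changes larger than those typical of the subunits. That run therefore does not show whether differences of the size seen in the subunits can be detected. Lengths and overlaps came from the BDGP6.54 annotation, and lists were matched by symbol, with 376 table genes unnamed there. Members and lists were chosen with earlier results of these data known, and the ribosomal protein lists were added after values were seen. Named genes were SdhA to SdhD, every mitochondrial gene, the subunits of highest level per kilobase and of lowest and highest fold change per complex among those of at least 5 mean CPM, the 5 most abundant L paralogs and the 10 smallest p-values. Companion genes given with values were among those of smallest p in each list, apart from sun and Bmcp. These were named for a small difference (sun) and for the opposite direction (Bmcp). Overlapping, barely covered and 0-count subunits were named after their values were seen. Alternatives were other scalings, no filter, a replicate block, a length trend and leaving out each library. Promoters and sequences were not analysed here.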

Additional observations from a re-analysis of the deposited data

How the results depend on the processing

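No oxidative phosphorylation gene was called by edgeR or DESeq2 in any setting run, with edgeR called counts over all genes of 549 without glucose replicate 1 and 147 without glucose replicate 2. DESeq2 without each library in turn, an alternative chosen after seeing the data, called between 6 and 328 genes and 0 of the set. Between 57 and 61 of the 61 nuclear subunits had a negative log2 fold change under the scalings, without a filter, with DESeq2, with the replicate block and in edgeR without each library; this count was not made with the length trend subtracted. Leaving out each library gave medians from -0.72 to -0.31 for nuclear subunits, from -0.70 to -0.31 for complex I, -0.80 to -0.47 for complex II, -0.72 to -0.44 for complex III, -0.77 to -0.19 for complex IV and -0.68 to -0.28 for complex V. With the length trend subtracted they were -0.27 for nuclear subunits and -0.27, -0.45, -0.37, -0.21 and -0.28 for complexes I to V. With a library left out, the remaining single library of its diet is assumed to vary like the other diet. Upper-quartile scaling moved the median of all tested genes from -0.04 to -0.15, and that of the nuclear subunits to -0.58.

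With the replicate block as a paired fit, 0 genes were called and the nuclear median was -0.49. The libraries share only a number: deviations of same-numbered libraries correlated at 0.284 over 12529 genes. In that paired fit mt:ND2 was at -0.056 and mt:ND6 at -0.27, both reversed. With upper-quartile scaling mt:ND1 was at -0.10, mt:ND5 at -0.057, mt:ND6 at -0.089 and mt:ATPase6 at -0.012, each below 0. mt:lrRNA was at 0.029 with median-of-ratios scaling and 0.035 with DESeq2. Leaving out each library reversed some signs, with ranges of -0.24 to 0.18 for mt:ND1, -1.11 to 0.91 for mt:ND2, -1.05 to 0.086 for mt:ND3, -0.26 to 0.55 for mt:ND5, -1.91 to 0.82 for mt:ND6, -0.44 to 0.32 for mt:CoII, -0.20 to 0.50 for mt:ATPase6 and -0.29 to 0.13 for mt:lrRNA. The ranges were -0.70 to 0.16 for ND-MLRQ, -0.14 to 0.71 for UQCR-11, -0.36 to 0.014 for ATPsynC and -0.96 to 0.37 for COX7AL. The cause was not tested. The design has 2 libraries per diet, and genes under about 5 CPM had few reads.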
